A study of Mus musculus with 5 samples.

Results

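The thin filament of the neonatal heart was described through 9 genes of troponin, sarcomeric actin and tropomyosin, Tnni1, Tnni3, Tnnt1, Tnnt2, Tnnc1, Actc1, Acta1, Tpm1 and Tpm2, out of 49671 genes in the deposited count table. They were chosen by name, and all 9 were found in the table and had enough counts to be tested. The RNA came from hearts of mice at postnatal day 2 on the C57BL6/J strain. CharmeWT hearts were wild type, and CharmeKO hearts carried a polyadenylation signal inserted into the locus of Charme, a muscle long noncoding RNA. The sequencing covered 3 CharmeWT pools of 9 hearts and 2 CharmeKO pools of 3 hearts, so that pool size and genotype cannot be told apart. Whole hearts were used, animals of both sexes were chosen at random in the study and the sex makeup of each pool was not given in the sources used here. The p-values measure only the spread between these pools.

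The thin filament is a double strand of actin, with tropomyosin lying along it and a troponin complex at regular intervals. Troponin C binds calcium, troponin I holds the filament off in the absence of calcium, and troponin T anchors the complex to tropomyosin. Several of these proteins have a form that is favored in the fetal heart and a form that takes over around and after birth. The fetal heart uses slow skeletal troponin I (Tnni1), which is replaced by cardiac troponin I (Tnni3), whereas Tnnc1 is the only troponin C of the working myocardium at any age. Acta1 encodes skeletal alpha-actin and Actc1 cardiac alpha-actin, and Tpm2 encodes beta-tropomyosin and Tpm1 alpha-tropomyosin. Cardiac troponin T (Tnnt2) dominates in the heart throughout, and slow skeletal troponin T (Tnnt1) is a minor form. The ratios Tnni1/Tnni3, Acta1/Actc1 and Tpm2/Tpm1 are used as a reading of how far the isoform change has gone. Tnnt1/Tnnt2 sets the minor form of troponin T against the main form. Counts per gene do not separate splice forms of the same gene.

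In the GRCm38 build, the troponin genes lie in pairs that join one troponin I gene to one troponin T gene. Tnni1 (chr1:135779434-135810989, plus strand) is followed after 25364 bp by Tnnt2 (chr1:135836354-135852260, plus strand). Tnnt1 (chr7:4504570-4516382, minus strand) and Tnni3 (chr7:4518305-4524229, minus strand) are 1922 bp apart, so each pair holds one gene of the fetal or minor form and one of the adult form. The other genes stand alone, with Tnnc1 at chr14:31208312-31211729 (plus strand), Actc1 at chr2:114047282-114053548 (minus strand), Acta1 at chr8:123891769-123894751 (minus strand), Tpm1 at chr9:67022590-67049406 (minus strand) and Tpm2 at chr4:43514711-43523765 (minus strand). All 9 are annotated as protein-coding. Of the 150-base stretches of each gene's principal transcript, 0 occurred in a transcript of another gene. This covers only exact matches over 150 bases, and shorter trimmed reads or reads with mismatches were not checked. Actc1 had 177444 to 295274 counts per pool against 677 to 2414 for Acta1. Whether any Acta1 counts came from Actc1 reads was not tested. Tnni3 overlaps Dnaaf3 on the same strand, and fragments lying over both were not counted.

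The 2 sarcomeric actin genes each held a CArG box in its strict form (CC, 6 bases that are each A or T, then GG), the binding sequence of serum response factor, in the RefSeq promoter window of 250 bases before to 50 bases after the start site. The sites are shown because the 2 genes share this motif. Both genes were highest in CharmeWT pool 2 and CharmeKO pool 2, and the part of the motif in that pattern was not tested. The CharmeKO pools differed only 1.05-fold for Actc1, against 2.26-fold for Acta1. Each site is given on the gene's own strand with the CArG box in capitals and 10 bases on either side.

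Actc1 promoter: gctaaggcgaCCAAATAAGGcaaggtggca

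Acta1 promoter: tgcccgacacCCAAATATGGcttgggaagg

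The Actc1 site (GRCm38, chr2:114052903-114052932, minus strand) begins its box 47 bases before the RefSeq start site and lies in an intron of the longer GENCODE gene model. The Acta1 site (chr8:123894829-123894858, minus strand) begins its box 73 bases before the start site, outside the annotated gene. The strict form reads alike on both strands, overlapping matches were allowed, and it was found in 535 of 32851 windows, or 1.63%. The windows of the other members held 0 boxes of the strict form, as did that of Acta2, smooth muscle alpha-actin. Tpm2 and Acta2 were also high in CharmeWT pool 2 and CharmeKO pool 2. Forms with another base inside the box, which serum response factor can also bind, were not searched for.

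Library depth and composition set the frame for the values that follow. Between 16721055 and 21646378 counts fell on genes in each pool, and the 9 genes took 2.84 to 3.77% of them. Markers of cardiomyocytes were abundant in every pool, their summed level ranging from 41870 to 49752 CPM (counts scaled to the library size adjusted by TMM). The TMM factor was 0.845 in CharmeKO pool 1 and 1.02 to 1.09 in the other pools. As a share of all counts on genes, these markers took 4.55 to 5.09% in CharmeWT and 4.04 and 4.38% in CharmeKO. Of 11 such markers 0 passed the test, beside 2.05% of all genes tested. Both CharmeKO pools were above every CharmeWT pool in 2 of the 11 (17.8% of all genes tested) and below in 3 (18.2% of all genes tested). CharmeKO pool 1 stood apart in mitochondrial counts, which made up 21.1% of its total against 9.68 to 11.1% in the other pools. CharmeKO pool 2 stood apart in salivary gland genes, which took 2.56% of its counts against 0.0277% in CharmeKO pool 1 and at most 2.98e-05% in CharmeWT. The targeted transcript, Charme, had 810, 183 and 276 counts in the CharmeWT pools and 57 and 79 in the CharmeKO pools, the lowest levels of the series.

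The levels of the 9 genes fell into an abundant and a scarce class. FPKM are counts scaled to the same adjusted library size and to the length of all annotated exons. The CharmeWT means were 6876 ± 2256 (SD, n = 3) for Actc1, 2191 ± 448 for Tnnc1 and 1328 ± 179 for Tnni3. Tnnt2 followed at 974 ± 138, Tnni1 at 735 ± 108 and Tpm1 at 728 ± 144. A gap of more than an order of magnitude separated these from Acta1 at 33.4 ± 19.3, Tnnt1 at 22.8 ± 2.85 and Tpm2 at 22.5 ± 9.32. The ranges of neighbors in this order did not overlap from Actc1 to Tnnt2, nor across the gap. Tnnt2, Tnni1 and Tpm1 overlapped each other's ranges in turn, as did Acta1, Tnnt1 and Tpm2. The CharmeKO means gave the same order, except that Tpm2 at 25.7 ± 5.95 (SD, n = 2) stood above Tnnt1 at 20.3 ± 0.226. The order depended on the length used, most of all the place of Tnnt2, because its annotated exons span 7752 bases and its principal transcript only 1200. Per kilobase of the principal transcript, the CharmeWT mean of Tnnt2 was 6292 and it ranked directly below Actc1 at 7553, with overlapping ranges. On that length Tpm1 (2488) stood above Tnni1 (2302) and Tnnt1 (48.9) above Acta1 (35.5), and the ranges of Tnnc1 and Tnni3 overlapped.

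**Figure D1:**
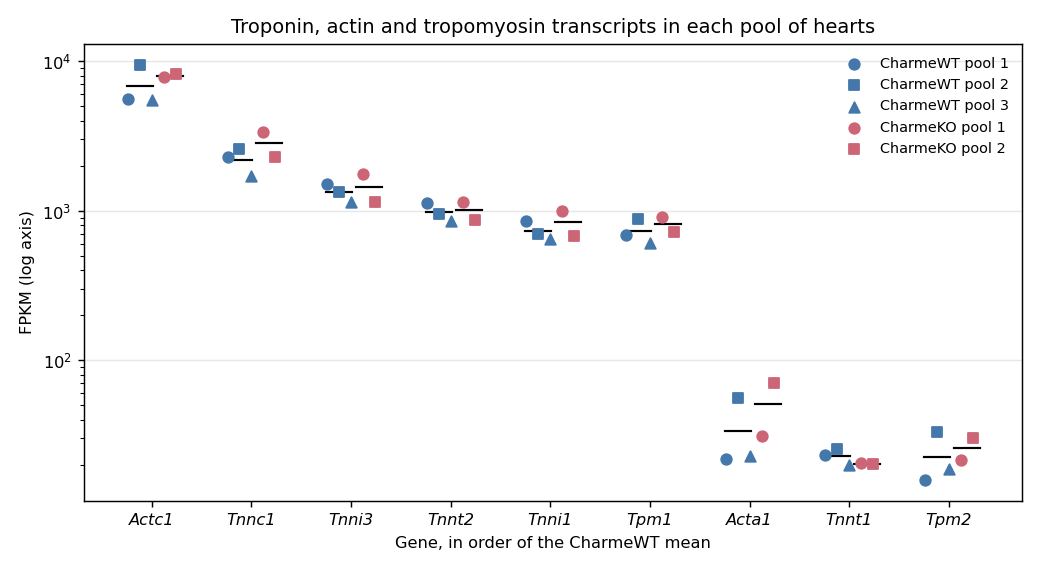
Level of each of the 9 genes in each pool, as FPKM on a log axis, with CharmeWT in blue, CharmeKO in red, the marker giving the pool number and the black lines the group means. The 6 abundant genes sit at or above 606 FPKM in every pool and the 3 scarce genes at or below 70.5, and in no gene are both CharmeKO pools outside the range of the CharmeWT pools.

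None of the 9 genes passed the test for a difference between CharmeKO and CharmeWT. By edgeR's quasi-likelihood test, 305 of 14880 genes, or 2.05%, passed the test, with 0.1 as the limit of the adjusted p and a genotype mean of 1 FPKM or more (1.53% higher and 0.524% lower in CharmeKO), against 0 of the 9. An unadjusted p under 0.05 was reached by 18.6% of all genes tested and by 0 of the 9. The likelihood ratio test of edgeR, which called 6.27% of all genes, and DESeq2, which called 7.54%, also called 0 of the 9. In 36.0% of all genes tested the CharmeWT and CharmeKO pools did not overlap, against 0 of the 9. By point estimate 8 were higher and 1 was lower in CharmeKO, and their median log2 fold change was 0.18, beside 0.023 over all genes tested, of which 7715 were higher and 7165 lower. Without CharmeKO pool 1, 4 of the 9 were higher and their median was -0.0064. In these bulk samples, fewer cells of a type and less RNA per cell cannot be told apart.

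Troponin I is the inhibitory subunit, and its pair carries the best known isoform change of the newborn heart. Tnni1 measured 856, 702 and 648 FPKM in CharmeWT pools 1 to 3 and 999 and 673 in CharmeKO pools 1 and 2. CharmeKO pool 1 was the highest of the 5 pools and CharmeKO pool 2 lay within the CharmeWT range, giving a log2 fold change of 0.18 (SE 0.271, 95% interval -0.42 to 0.79, adjusted p = 0.734). Tnni3 measured 1505, 1332 and 1147 FPKM in CharmeWT and 1754 and 1148 in CharmeKO. It had the same high pool and the same overlap as Tnni1, with a log2 fold change of 0.13 (SE 0.274, 95% interval -0.48 to 0.74, adjusted p = 0.827). Both changed sign without CharmeKO pool 1, Tnni1 to -0.13 and Tnni3 to -0.21.

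The ratio of the fetal to the adult troponin I gene was nearly the same in all pools. Tnni1/Tnni3 was 0.569, 0.527 and 0.565 in CharmeWT and 0.569 and 0.587 in CharmeKO. The means were 0.554 ± 0.0232 (SD, n = 3) and 0.578 ± 0.0122 (SD, n = 2), a difference of 0.063 on the log2 scale against a pooled SD of 0.0529 (two-sided exact permutation test over 10 assignments, p = 0.4, where 0.1 is the smallest p this design allows). Both CharmeKO values lay above the CharmeWT values, but CharmeKO pool 1 exceeded CharmeWT pool 1 by less than counting error. Tnni1 made up 49.8% of the counts of the pair in each of these 2 pools, with 95% Wilson intervals of 49.5 to 50.1% in CharmeKO pool 1 and in CharmeWT pool 1, which cover counting error only. The sign of the difference turned to -0.036 after a correction for gene length and GC content. Over all 5 pools the highest value was 1.54-fold the lowest for Tnni1 and 1.53-fold for Tnni3, while their ratio spanned 0.155 on the log2 scale. The level of the ratio depended on the length used. Per kilobase of the principal transcripts it was higher, at 0.729 to 0.787 in CharmeWT and 0.788 and 0.812 in CharmeKO.

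Troponin T couples the complex to tropomyosin, and nearly all of its RNA came from the cardiac gene. Tnnt2 measured 1122, 952 and 848 FPKM in CharmeWT and 1145 and 864 in CharmeKO. CharmeKO pool 1 was again highest and CharmeKO pool 2 lay inside the CharmeWT range, with a log2 fold change of 0.044 (SE 0.314, 95% interval -0.66 to 0.74, adjusted p = 0.951), which turned to -0.17 without CharmeKO pool 1 and to -0.046 without CharmeWT pool 3. Tnnt1 measured 23.1, 25.5 and 19.8 FPKM in CharmeWT and 20.5 and 20.2 in CharmeKO. It was the only one of the 9 genes with a lower point estimate in CharmeKO, at a log2 fold change of -0.17 (SE 0.185, 95% interval -0.58 to 0.25, adjusted p = 0.647), and both CharmeKO values were within the CharmeWT range. It rested on 637 to 1050 counts per pool, against 125237 to 179059 for Tnnt2.

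Tnnt1/Tnnt2 was 0.0206, 0.0267 and 0.0233 in CharmeWT and 0.0179 and 0.0233 in CharmeKO. The lowest value was in CharmeKO pool 1, which had the most Tnnt2, and CharmeKO pool 2 equaled CharmeWT pool 3 to 3 digits. The difference of -0.20 on the log2 scale was smaller than the pooled SD of 0.219 (exact permutation test, p = 0.5). It was -0.0054 without CharmeKO pool 1 and -0.39 without CharmeKO pool 2. Per kilobase of the principal transcripts the ratio was lower, at 0.00685 to 0.00888 in CharmeWT and 0.00594 and 0.00775 in CharmeKO, with the same difference between the groups because a length is fixed for each gene. In counts, Tnnt1 made up 0.506 to 0.754% of the pair.

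Troponin C, the calcium sensor, has only Tnnc1 here and therefore no isoform ratio. Tnnc1 measured 2270, 2593 and 1708 FPKM in CharmeWT and 3352 and 2288 in CharmeKO. CharmeKO pool 1 was above every other pool and CharmeKO pool 2 was in the middle of the CharmeWT range. Among the 5 troponin genes of the 9 it had the highest log2 fold change, 0.36 (SE 0.279, 95% interval -0.26 to 0.99, adjusted p = 0.496). Without CharmeKO pool 1 the log2 fold change was 0.064 (adjusted p = 0.9497). Without CharmeKO pool 2 it was 0.61 and the adjusted p 0.112, in a fit that called 31.7% of all genes and assumed that the lone CharmeKO pool varied as the CharmeWT pools did.

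Summed over the genes of a subunit, troponin I stood at 2064 ± 284 FPKM in CharmeWT and 2287 ± 658 in CharmeKO (exact permutation test, p = 0.6), and troponin T at 997 ± 140 and 1024 ± 199 (exact permutation test, p = 0.7). The ratio of the troponin I to the troponin T sum was 2.06, 2.08 and 2.07 in CharmeWT and 2.36 and 2.06 in CharmeKO. Per kilobase of the principal transcripts it was 0.834 to 0.839 in CharmeWT and 0.954 and 0.837 in CharmeKO, so that which subunit had more RNA depended on the length used. On either length it was alike in 4 pools and higher in CharmeKO pool 1, the pool with 21.1% mitochondrial counts, whose part in this was not tested. The exact permutation test of this ratio gave p = 0.4.

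Sarcomeric actin, the backbone of the filament, gave the most abundant and the most variable of the 9 transcripts. Actc1 measured 5600, 9480 and 5547 FPKM in CharmeWT and 7801 and 8181 in CharmeKO. Both CharmeKO pools lay between CharmeWT pool 2 and the other CharmeWT pools, with a log2 fold change of 0.22 (SE 0.374, 95% interval -0.62 to 1.05, adjusted p = 0.778). The log2 fold change of Actc1 was 0.52 without CharmeWT pool 2 and 0.084 without CharmeWT pool 3. Acta1 measured 21.8, 55.7 and 22.7 FPKM in CharmeWT and 31.2 and 70.5 in CharmeKO. The pools fell into a high pair, CharmeWT pool 2 and CharmeKO pool 2, and a low group of the other 3 that held pools of both genotypes. Acta1 had the largest log2 fold change of the 9, 0.61, and the largest SE, 0.428 (95% interval -0.35 to 1.57, adjusted p = 0.457). Its direction rested on CharmeKO pool 2, since the log2 fold change was -0.098 without that pool (adjusted p = 0.883), 1.08 without CharmeKO pool 1 and 1.19 without CharmeWT pool 2.

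Acta1/Actc1 was 0.00388, 0.00588 and 0.00410 in CharmeWT and 0.00400 and 0.00861 in CharmeKO. CharmeKO pool 1 was between CharmeWT pools 1 and 3 while CharmeKO pool 2 was the highest of all, and the CharmeKO pools differed from each other by 1.11 on the log2 scale. The difference between the genotypes was 0.37 with a pooled SD of 0.524 (exact permutation test, p = 0.6), and it was 0.92 without CharmeKO pool 1 and -0.18 without CharmeKO pool 2. Skeletal alpha-actin made up 0.367 to 0.811% of the counts of the pair, so that cardiac alpha-actin carried nearly all sarcomeric actin RNA in both genotypes.

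Acta1 is also the actin of skeletal muscle, and the sum of skeletal muscle markers was higher in both CharmeKO pools, most of all in CharmeKO pool 2. Salivary gland genes took 2.56% of the counts of CharmeKO pool 2, and whether the skeletal rise is tied to them was not tested. The summed level of 17 skeletal markers was 39.2 to 45.1 CPM in CharmeWT and 108 and 175 CPM in CharmeKO. Without Myl1, a light chain that atrial cardiomyocytes also make, the sum was 11.3 to 14.3 CPM in CharmeWT and 31.4 and 68.0 CPM in CharmeKO. Of the 17, 10 were tested, but Tnnc2, Myh3, Atp2a1 and Pvalb passed the count filter only with the CharmeKO pools. The other 6 had enough counts within CharmeWT, and 6 of 6 were higher in both CharmeKO pools, beside 17.8% of all genes tested. Of these, Myl1 (log2 fold change 1.62), Mylpf (2.60) and Myh8 (2.91) were called. In CharmeKO pool 1, Tnnt3 had 21 counts against 15 to 23 in CharmeWT, and Actn3 had 11 against 6 to 13. For Tnnt3 and Actn3 that pool was thus above CharmeWT only after scaling, on few counts. Myh4 was at 0 counts in every pool, Myod1 and Myf6 were at 0 in all but CharmeKO pool 2, with 2 counts each, and Myog had 1 to 8 counts in CharmeWT and 1 and 11 in CharmeKO. CharmeWT pool 2 had 85.6 CPM of Acta1 with a skeletal sum of 45.1 CPM, close to that of the low Acta1 pools of its genotype. Smooth muscle and pericyte markers summed to 1112, 2129 and 1204 CPM in CharmeWT and 1437 and 1728 in CharmeKO, highest in the same pools as Acta1, but without Acta2 they summed to 591 to 664 CPM in CharmeWT and 488 and 513 CPM in CharmeKO. Of 10 such markers 1 was called, beside 2.05% of all genes tested. By point estimate 4 of the 10 were higher and 6 lower in CharmeKO, with a median log2 fold change of -0.30. The called gene was Cnn1, a smooth muscle calponin, which measured 8.09, 9.52 and 6.99 FPKM in CharmeWT and 15.8 and 17.9 in CharmeKO (log2 fold change 1.04, adjusted p = 0.0521). The part of skeletal or smooth muscle cells in the level of Acta1 was not tested.

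**Figure D2:**
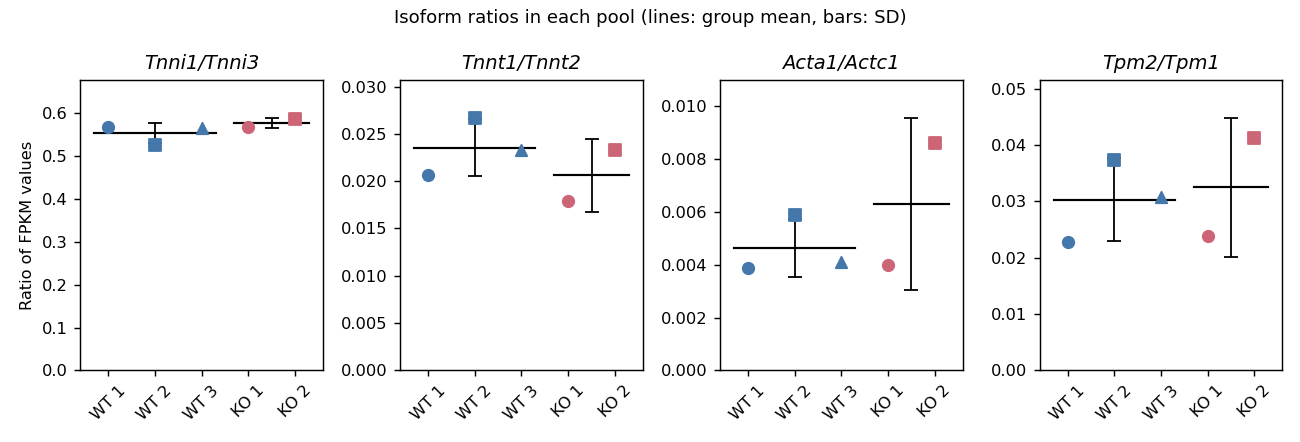
Isoform ratio of FPKM values in each pool for troponin I, troponin T, sarcomeric actin and tropomyosin. The ratio is of the fetal to the adult form, and for troponin T of the minor to the main form. Each axis starts at 0, with CharmeWT in blue, CharmeKO in red, lines for the group means and bars for the SD. Tnni1/Tnni3 stays between 0.527 and 0.587, whereas Acta1/Actc1 and Tpm2/Tpm1 are highest in CharmeWT pool 2 within CharmeWT and in CharmeKO pool 2 within CharmeKO.

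Tropomyosin blocks or frees the myosin sites on actin, and alpha-tropomyosin was its main form. Tpm1 measured 692, 887 and 606 FPKM in CharmeWT and 902 and 724 in CharmeKO. CharmeKO pool 1 was just above CharmeWT pool 2 and CharmeKO pool 2 was within the CharmeWT range, with a log2 fold change of 0.16 (SE 0.293, 95% interval -0.49 to 0.81, adjusted p = 0.793). Tpm2 measured 15.8, 33.2 and 18.7 FPKM in CharmeWT and 21.5 and 29.9 in CharmeKO. Both CharmeKO pools lay within the CharmeWT range, with a log2 fold change of 0.19 (SE 0.301, 95% interval -0.48 to 0.86, adjusted p = 0.752). The direction turned to -0.072 without CharmeKO pool 2 and to -0.0091 without CharmeWT pool 1 for Tpm2, and to -0.0064 without CharmeKO pool 1 for Tpm1.

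Tpm2/Tpm1 was 0.0228, 0.0374 and 0.0308 in CharmeWT and 0.0238 and 0.0413 in CharmeKO. The pools numbered 1 were lowest and the pools numbered 2 highest in both genotypes. The difference of 0.077 on the log2 scale was small beside the pooled SD of 0.438 (exact permutation test, p = 0.8), and it was 0.47 without CharmeKO pool 1, -0.32 without CharmeKO pool 2 and -0.11 without CharmeWT pool 1. Per kilobase of the principal transcripts the mean was 0.0123 in CharmeWT and 0.0132 in CharmeKO, against 0.0303 and 0.0325 with all annotated exons. Over the 4 isoform ratios the p-values adjusted by the Benjamini-Hochberg method were all 0.8.

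The cardiac myosin heavy chains also change isoform around birth, from Myh7 to Myh6 in the mouse ventricle. Myh7/Myh6 was 0.380, 0.158 and 0.301 in CharmeWT and 0.983 and 0.524 in CharmeKO. Both CharmeKO pools were above every CharmeWT pool. The group means differed by 1.45 on the log2 scale with a pooled SD of 0.652, the lowest CharmeKO value exceeded the highest CharmeWT value by 0.46, and the exact permutation test gave p = 0.1, the smallest it can give. CharmeWT pool 2, which was high in Acta1/Actc1 and Tpm2/Tpm1, had the lowest Myh7/Myh6. Whether the myosin ratio differs from the troponin I ratio in its response was not tested.

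**Figure D3:**
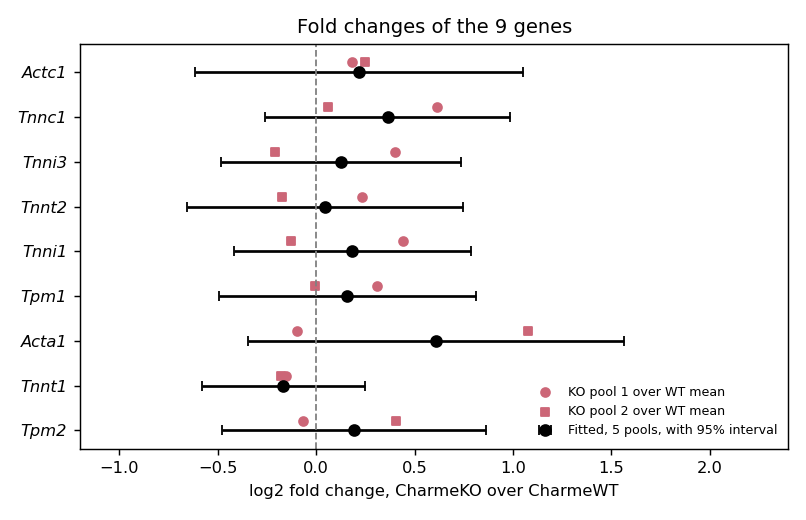
Log2 fold change of CharmeKO over CharmeWT for the 9 genes, with the fitted value and its 95% interval in black and each CharmeKO pool over the CharmeWT mean of FPKM in red. All 9 intervals include 0, and the CharmeKO pools lie on opposite sides of 0 for Tnni3, Tnnt2, Tnni1, Tpm1, Acta1 and Tpm2.

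The intervals give the size of change that the 5 pools leave possible. The upper bound for CharmeKO over CharmeWT was 1.73-fold for Tnni1, 1.67-fold for Tnni3, 1.19-fold for Tnnt1, 1.68-fold for Tnnt2 and 1.98-fold for Tnnc1. For the actins it was wider, at 2.07-fold for Actc1 and 2.96-fold for Acta1, and for the tropomyosins it was 1.76-fold for Tpm1 and 1.82-fold for Tpm2. The lower bounds ran from 0.634-fold (Tnnt2) to 0.836-fold (Tnnc1).

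Across pools, the 9 genes followed a few shapes, described here with no test because 5 points are few and share their libraries. After centering each gene's log2 CPM on its mean over the pools, Tnni1 and Tnni3 differed by a root mean square of 0.051, the closest pair of the 36, followed by Tnni3 and Tnnt2 at 0.075 and Tnni1 and Tnnt2 at 0.083. All 3 genes, which lie in the linked loci on chromosomes 1 and 7, were high in CharmeWT pool 1 and CharmeKO pool 1. Tnnc1 and Tpm1 were 0.14 apart and also peaked in CharmeKO pool 1, with a second high value in CharmeWT pool 2. Actc1, Tpm2 and Acta1 were high in CharmeWT pool 2 and CharmeKO pool 2, by 0.63 and 0.97 for Acta1. Actc1 was also above its mean in CharmeKO pool 1, at 0.12 against 0.19 in CharmeKO pool 2. Tnni1 and Acta1 were the farthest apart, at 0.80. Tnnt1 lies next to Tnni3, yet was 0.25 from it, and the nearest of the 9 to it in shape was Tnnt2 at 0.19.

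**Figure D4:**
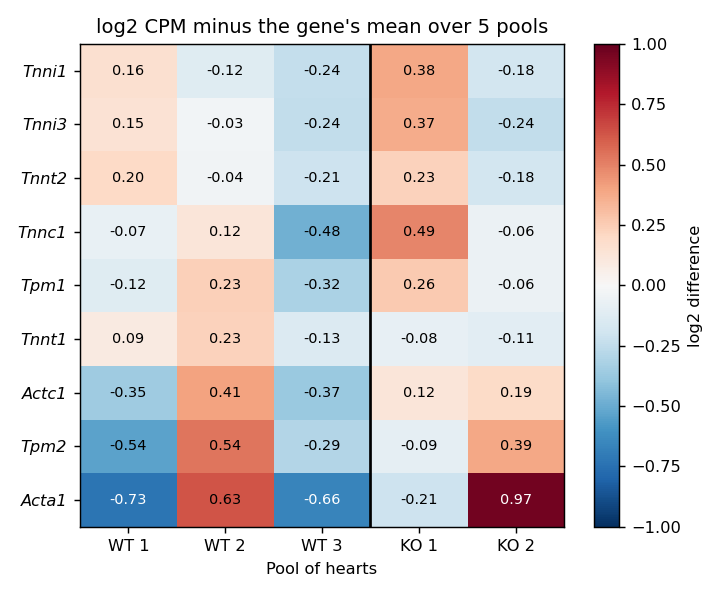
Log2 CPM of each gene minus its mean over the 5 pools, with genes in rows and pools in columns, red above and blue below the gene's mean. The 5 upper genes have their highest value in CharmeKO pool 1, from 0.23 to 0.49, and Acta1 at the bottom has the widest range, from -0.73 to 0.97.

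Outside the 9 genes, the nearest of 4059 genes with a mean of at least 10 FPKM were mostly of unrelated families. Tnni1 was nearest to Ndufb11, a subunit of respiratory complex I, at 0.020, and Tnnt1 to Myl3, the ventricular essential myosin light chain, at 0.033. The nearest gene to Acta1 was Acta2, smooth muscle alpha-actin, at 0.28, a loose match beside a spread of 0.68 in Acta1 itself. Acta2 had 10349, 27180 and 10676 counts in CharmeWT and 13400 and 27108 in CharmeKO, so that it was high in the same 2 pools as Acta1, and its log2 fold change was 0.33 (SE 0.430, adjusted p = 0.698).

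The other genes of the thin filament, which encode further actins, troponins and tropomyosins and the proteins that cap or sever the filament, gave 1 call among 23 tested, in the direction of a rise, and 0 of a fall, beside 2.05% called of all genes. Their median log2 fold change was 0.43, with 18 higher and 5 lower, beside 0.023 with 7715 higher and 7165 lower over all genes tested. An unadjusted p under 0.05 was reached by 9 (18.6% of all genes), both CharmeKO pools were above CharmeWT in 6 (17.8% of all genes) and below in 2 (18.2% of all genes). The called gene was Tnnc2, the troponin C of fast skeletal muscle, with 0, 0 and 1 counts in CharmeWT and 10 and 110 in CharmeKO (adjusted p = 0.0374). It passed the count filter only with the CharmeKO pools, so it had to differ to be tested, and it lost the call without CharmeWT pool 1 (adjusted p = 0.127) and without CharmeWT pool 3 (adjusted p = 0.275). Its partners of fast skeletal muscle had 87 to 127 counts in CharmeWT and 159 and 209 in CharmeKO for Tnni2 (adjusted p = 0.168) and 15 to 23 counts in CharmeWT and 21 and 175 in CharmeKO for Tnnt3 (adjusted p = 0.117). These 3 genes are also in the skeletal marker list, whose sum was higher in both CharmeKO pools.

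Among the abundant genes of this list, cofilin 1 (Cfl1), which severs actin filaments, had a log2 fold change of 0.65 (adjusted p = 0.161), and Actb, cytoplasmic beta-actin, one of -0.086 (adjusted p = 0.861). Tpm4, a cytoskeletal tropomyosin, had 96.8 to 113 FPKM in CharmeWT and 194 and 126 in CharmeKO, with a log2 fold change of 0.62 (adjusted p = 0.187). The largest fall by point estimate was that of Tmod4, a tropomodulin that caps the pointed end of the filament, at -0.98 (adjusted p = 0.223) on 13 to 47 counts per pool.

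Transcription and splicing factors of heart muscle gave 2 calls among 21 tested, both lower in CharmeKO, beside 2.05% called of all genes, with a median log2 fold change of -0.16, 5 higher and 16 lower. Both CharmeKO pools were below every CharmeWT pool in 8 of the 21, beside 18.2% of all genes tested, and above in 0, beside 17.8%. Thra, the main thyroid hormone receptor of the heart, measured 61.8, 59.0 and 60.3 FPKM in CharmeWT and 30.7 and 34.7 in CharmeKO. The pools did not overlap, and Thra was lower by a log2 fold change of -0.88 (SE 0.171, adjusted p = 0.0521). It passed the test in 11 of 17 alternatives and lost the call without CharmeWT pool 1 (adjusted p = 0.205), pool 2 (adjusted p = 0.128) or pool 3 (adjusted p = 0.305). In these 3 fits its log2 fold change was -0.86, -0.90 and -0.88. Its fold change was -0.56 (adjusted p = 0.168) after the correction for gene length and GC content. Rbfox1, a muscle splicing factor, measured 4.94, 3.73 and 5.21 FPKM in CharmeWT and 2.14 and 1.95 in CharmeKO, a log2 fold change of -1.18 (SE 0.243, adjusted p = 0.0649). It passed in 12 of 17 alternatives and lost the call without CharmeWT pool 1 (log2 fold change -1.13, adjusted p = 0.211) and without CharmeWT pool 3 (-1.09, adjusted p = 0.361).

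Serum response factor (Srf) itself, the factor that binds CArG boxes, had a log2 fold change of 0.0056 (adjusted p = 0.989). The other abundant regulators were Rbm24, a splicing factor of sarcomeric transcripts, at -0.12 (adjusted p = 0.750), and Gata4, a cardiac transcription factor, at -0.35 (adjusted p = 0.298). The largest rise by point estimate was 0.77 for Ppargc1a, a coactivator of mitochondrial genes (adjusted p = 0.243), with 33.0 FPKM in CharmeKO pool 1, 13.1 in CharmeKO pool 2 and 11.9 to 15.2 in CharmeWT. That high value was in the pool with 21.1% mitochondrial counts, whose part in it was not tested.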

How the data were processed

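PolyA RNA of 5 pools of hearts was sequenced from stranded libraries (Illumina Stranded mRNA Prep, paired-end). Per the study's methods, the authors trimmed reads with Cutadapt and Trimmomatic, aligned them to GRCm38 with STAR and deposited raw counts of uniquely mapped fragments per Ensembl gene. Tool versions were not given in the sources used here. A deposited table of normalized values, written with decimal commas, was not used.

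Genes reaching 10 counts in 2 or more pools were kept, scaled by TMM and tested with edgeR 4.0.16 (glmQLFit, glmQLFTest) in R 4.3.3 over all 14880 genes passing, with Benjamini-Hochberg adjustment. A call needs an adjusted p under 0.1 and a mean of at least 1 FPKM in a genotype. FPKM was computed from the counts and GENCODE M21 exon lengths, with 49411 of 49671 gene identifiers matched and 1000 bases assumed for 23 tested genes without a length. Ratios were compared by exact permutation over 10 assignments of pools. The test was also run on simulated counts with planted changes, all larger than the fitted change of any of the 9 genes. Recovery of smaller changes was not examined. Named genes were the 9 genes, 5 isoform ratios, the nearest genes in shape and, of the other thin filament genes and the regulators, every gene called, the 3 most abundant and the largest rise and fall. Of the marker lists the rule also takes in, muscle genes called were named and the others given as sums or counts. Tpm4, Tnni2, Tnnt3 and the markers at low counts were named after their values were seen. DESeq2 1.42.0, other normalizations and filters, a length and GC correction, a replicate block and leaving out each pool were alternatives. The genes and lists were chosen with earlier results of these data known.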

Additional observations from a re-analysis of the deposited data

How the results depend on the processing

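Under 17 alternatives, 0 of the 9 genes was called. At an unadjusted p under 0.05 stood Acta1 and Tpm2 without CharmeWT pool 2, Acta1 without CharmeKO pool 1 and Tnnc1 without CharmeKO pool 2, and none in the other alternatives. The alternative chosen after seeing the data, leaving out mitochondrial and salivary gland genes, called 313 genes. With a pool left out, log2 fold changes ranged from -0.13 to 0.43 for Tnni1, -0.21 to 0.39 for Tnni3, -0.17 to 0.23 for Tnnt2 and -0.0064 to 0.33 for Tpm1 (each lowest without CharmeKO pool 1), and from -0.098 to 1.19 for Acta1 and -0.072 to 0.58 for Tpm2 (lowest without CharmeKO pool 2). Calls over all genes were 1122 by DESeq2, 933 by edgeR's likelihood ratio test and 111 at an adjusted p under 0.05. They ranged from 0 (without CharmeWT pool 3, where 1315 genes had an unadjusted p under 0.05) to 4607 (without CharmeKO pool 2) with a pool left out. The cause was not tested. Other thin filament genes called were 5, 4 and 1 under these and 0 to 12 with a pool left out. Regulators called were 4, 4 and 0, and 1 after the length and GC correction, and 0 to 8 with a pool left out. The log2 difference of Acta1/Actc1 ranged from -0.18 to 0.92 with a pool left out, and that of Tnni1/Tnni3 was -0.036 after the length and GC correction. Leaving out a CharmeKO pool leaves a lone sample assumed to vary like the CharmeWT pools.

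The pools of both genotypes share only the numbers 1 and 2, and nothing in the labels pairs them. Same-numbered pools deviated together weakly (r = 0.12 and 0.067 over 14880 genes). CharmeWT pool 3 and CharmeKO pool 2, which share no number, gave r = 0.057. With only 2 CharmeKO pools, each r recurs with the opposite sign in the other CharmeKO pool, so these values cannot show a pairing. With the replicate block 210 genes, 0 of the 9, 1 other thin filament gene and 1 regulator were called, and Tnnt2 turned to -0.056. With the block and the length and GC correction 35 genes, 0 other thin filament genes and 0 regulators were called, and Tnni1/Tnni3 was -0.053. The ratios from the authors' normalized table were not run.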
